A study of Rattus norvegicus with 4 samples.

Results

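The genes described here set how much phosphate, pyrophosphate and mineral-binding protein a vascular smooth muscle cell makes or handles, and they are the genes usually studied in calcification of the artery wall. They were 10 gene symbols: the promoters of mineral Slc20a1, Alpl, Runx2, Sox9 and Msx2, the inhibitors of mineral Enpp1, Ankh, Mgp and Spp1, and the hormone receptor Pth1r. Members were the array probe sets whose platform annotation gave exactly 1 symbol and that symbol was in the list. This found 12 probe sets of 8 genes, out of 14217 genes with such a probe set. Runx2 and Sox9, transcription factors of bone and of cartilage, had no such probe set and are not analysed here.

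The cells were smooth muscle cells from the aorta of Sprague-Dawley rats, which in the animal contract the vessel wall. They were cultured for 5 days with 10% serum and then for 3 days without it. Interleukin-1 beta (IL-1b), a cytokine of inflammation, was then given at 2.5 ng/mL for 24 hours to 2 samples, and its vehicle, 0.1% bovine serum albumin (BSA), to 2 others. All 4 samples shared the strain, the culture and the serum withdrawal, and the labels name no calcifying medium and no added phosphate. Whether replicates were separate cultures is not stated, so each p-value reflects only the spread among these 4 samples, which may be technical. Each sample was read on its own single-colour Affymetrix array, and the number of arrays limits the precision.

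Calcium phosphate forms outside the cell when phosphate is plentiful and the substances that block crystal growth are scarce. Pyrophosphate is the main small-molecule blocker. Enpp1 makes it from ATP outside the cell, Ankh is needed for its supply to the outside, and Alpl, tissue-nonspecific alkaline phosphatase, splits it into phosphate. Slc20a1 (PiT-1) carries phosphate with sodium into the cell, and matrix Gla protein (Mgp) and osteopontin (Spp1) are secreted proteins that hold back mineral in arteries.

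After 24 hours with IL-1b, the transcripts of the phosphate importer Slc20a1 and of the pyrophosphate genes Enpp1 and Ankh were higher, and that of Pth1r was lower. Of these calls only that of Slc20a1 held under all 13 alternatives given below. Those of Ankh and Pth1r each rest on 1 of 2 probe sets. Mgp and Spp1, both very bright on all 4 arrays, did not pass the test, and Alpl was below background on every array. Of the 8 member probe sets bright enough to be tested, 3 rose, 1 fell and 4 did not pass in limma at a Benjamini-Hochberg adjusted p of 0.05. Over all 18625 probe sets tested, 6.32% were called higher and 7.11% lower (13.4% in either direction). The 8 probe sets belonged to 6 genes, of which 3 rose, 1 fell and 2 did not pass by their brightest probe set. Brightness was taken over all 4 arrays, so the IL-1b arrays had a part in the choice. For Ankh the called probe set was the dimmer of 2 with vehicle (164 against 177), and the other did not pass. The median log2 fold change of the 6 genes was 0.75, against -0.01 over 10000 genes. Of those 10000, 15.3% were called in either direction (7.19% higher, 8.13% lower). The median of the 6 lies between Ankh (0.83) and Mgp (0.66), and Mgp was -0.06 without IL-1b replicate 1. By role, the 1 promoter of mineral tested rose, and of the 4 inhibitors tested 2 rose and 0 fell (0 also at an unadjusted p under 0.05). The count of member probe sets higher was 1 without vehicle replicate 2 and 6 without IL-1b replicate 2, while that of all probe sets went from 1178 to 699 and 4137.

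Values are MAS5 intensities, a linear brightness scale on which every array was set to the same trimmed mean, and are read here within a probe set only. IL-1b replicate 1 stood apart. Bacterial transcripts added at fixed amounts read a median of 3.61 times the vehicle mean on it, against 0.958 times on IL-1b replicate 2, and its brightest probe set read 40775 against 15782 to 17096 on the other 3 arrays. Background, taken as the 95th percentile of 27 dim bacterial control probe sets, was 76.7 on that array and 18.8 to 29.4 on the other 3. With each array centred on its median, the median log2 fold change of all probe sets moved from 0.02 to -0.19 and the share of calls that were higher from 47.1% to 34.4%. Changes of members under that scaling are to be read against this shift.

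The labelled cell type was checked against its markers. All 8 smooth muscle markers were tested, and 7 of them, Acta2, Tagln, Smtn, Cnn1, Lmod1, Myh11 and Des, lay above background on all 4 arrays. The summed intensity of the 8 was 33220 and 34100 with vehicle and 11690 and 8907 with IL-1b, and 7 of the 8 fell, all but Des. In these bulk samples, fewer cells of a type and less RNA per cell cannot be told apart. Of 6 endothelial markers none was above background on all 4 arrays, and Pecam1, Vwf, Tie1 and Nos3 were below it on all of them. The 7 macrophage markers summed to 99.8 and 90.1 with vehicle and to 866 and 1074 with IL-1b. Nearly all of that rise was Lyz2, which read 3.83, 10.2, 685 and 969 on vehicle replicates 1 and 2 and IL-1b replicates 1 and 2. Csf1r, the receptor that sustains macrophages, went the other way, at 55.5 and 49.8 with vehicle and 16.7 and 28.8 with IL-1b, and was too dim to be tested. Its value on IL-1b replicate 1 lay under the background of that array (76.7). Cd68 was higher with IL-1b, at 10.8 and 5.55 with vehicle and 40.2 and 32.5 with IL-1b. It was above background on IL-1b replicate 2 only and was also too dim to be tested. Cd163 and Itgam were below background on all 4 arrays. The 5 fibroblast markers summed to 826 and 786 with vehicle and to 1355 and 1913 with IL-1b, and 2 of the 4 tested, Dpt and Pdgfra, rose. The part of these shifts in the results on the members was not tested.

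**Figure D1:**
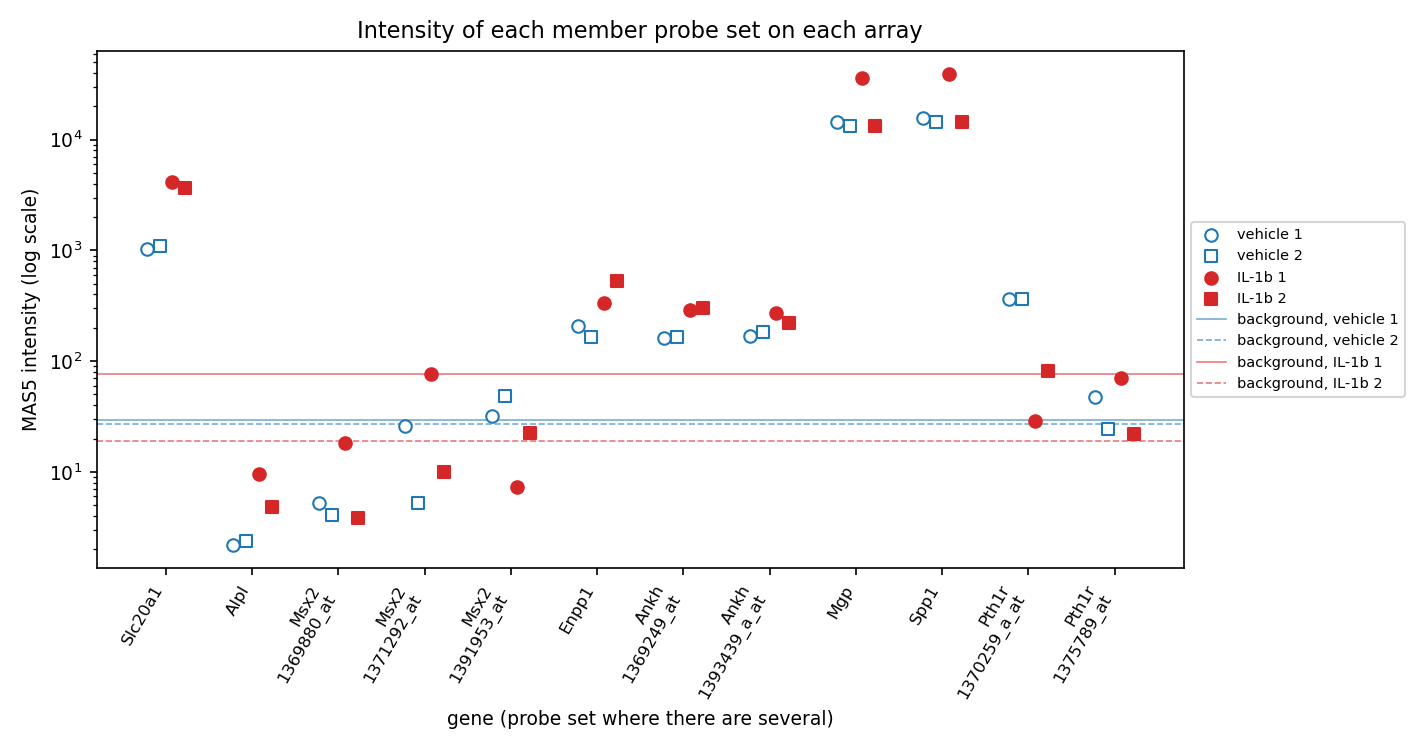
Intensity (log axis) of the 12 member probe sets on the 4 arrays, with open symbols for vehicle, filled symbols for IL-1b and lines for the background of each array. Slc20a1, Enpp1 and both Ankh probe sets lie higher on both IL-1b arrays, the first Pth1r probe set lies lower, Mgp and Spp1 are high on IL-1b replicate 1 only, and Alpl and 2 of the 3 Msx2 probe sets lie under background on every array.

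Slc20a1, the sodium-phosphate cotransporter through which smooth muscle cells take up phosphate, was the 1 promoter of mineral bright enough to be tested. Its probe set (1370314_at) read 1037 and 1092 with vehicle and 4112 and 3656 with IL-1b. Both IL-1b arrays lay far above both vehicle arrays, and the spread within each group was small beside the gap. The mean went from 1064 ± 38.8 to 3884 ± 322 (SD, n = 2), a 3.63-fold rise, with a log2 fold change of 1.86 ± 0.14 (SE), a 95% interval of 1.52 to 2.20 and an adjusted p of 3.6e-04 in limma. Only 2.33% of all probe sets tested had a larger rise. The call held under all 13 alternatives run, with log2 fold changes of 1.66 to 1.94. IL-1b replicate 1 gave 3.86 times the vehicle mean and replicate 2 gave 3.43 times, so the rise was seen at a like size on the array that stood apart and on the other.

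Alpl, the enzyme that removes pyrophosphate and frees phosphate, read (1368139_s_at) 2.20 and 2.39 with vehicle and 9.57 and 4.84 with IL-1b. All 4 values were below the background of their array, so no fold is given and the probe set was too dim to be tested. Msx2, a homeobox transcription factor of bone and tooth, had 3 probe sets, and none was bright enough to be tested. The first (1369880_at) read 5.27, 4.10, 18.1 and 3.84 and the second (1371292_at) 26.1, 5.24, 76.1 and 9.98, on vehicle replicates 1 and 2 and IL-1b replicates 1 and 2, all below background and with overlapping groups. The third (1391953_at) read 31.9 and 48.2 with vehicle, both above background, and 7.37 and 22.5 with IL-1b, of which only that of replicate 2 was above it. No fold is given for Msx2 either.

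Enpp1, the ectoenzyme that makes pyrophosphate from ATP, read (1370047_at) 209 and 166 with vehicle and 336 and 531 with IL-1b. The groups did not overlap, as was so with IL-1b higher for 29.2% of all probe sets tested, and the IL-1b arrays differed more from each other than the vehicle arrays did. The mean went from 188 ± 30.2 to 434 ± 138 (SD, n = 2), 2.23-fold, with a log2 fold change of 1.16 ± 0.27 (SE) and an adjusted p of 0.033. Here IL-1b replicate 1 was the lower of the pair, at 1.79 times the vehicle mean against 2.83 times. The call was lost without vehicle replicate 2 (adjusted p = 0.12), without the intensity trend of the variance (0.13) and with median centring (0.20), in a range of 2.6e-07 to 0.20 over the 13 alternatives, in all of which it was higher with IL-1b (log2 fold change 0.83 to 1.48).

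Ankh, a membrane protein needed for the release of pyrophosphate, had 2 probe sets. The first (1369249_at) read 162 and 166 with vehicle and 287 and 305 with IL-1b, and the second (1393439_a_at) read 169 and 184 with vehicle and 274 and 221 with IL-1b. In both, each IL-1b array lay above each vehicle array. The first rose from 164 ± 2.64 to 296 ± 12.6 (SD, n = 2), 1.78-fold, with a log2 fold change of 0.83 ± 0.21 (SE, adjusted p = 0.043). The second gave 0.47 ± 0.23 (adjusted p = 0.24), with a 95% interval of -0.08 to 1.01 that holds the value of the first. The call of the first was close to the threshold and passed in 7 of 13 alternatives. It was lost without vehicle replicate 1 or 2 (adjusted p = 0.30 and 0.29), with quantile normalization or no filter (0.052 in each), without the intensity trend (0.088) and with median centring (0.39), in a range of 0.0035 to 0.39, while the log2 fold change stayed at 0.62 to 0.87. The second passed only without IL-1b replicate 2 (adjusted p = 0.030, in a range of 0.030 to 0.78).

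The 250 bases before the start of Ankh are shown because it is a member that rose and its promoter is among those given by RefSeq (build GRCr8, chr2:79883201-79883450, plus strand). Capitals mark matches to a loose NF-kB pattern, GGG and CC with any 5 bases between them, on either strand. NF-kB is the transcription factor best known for acting downstream of IL-1b.
Ankh: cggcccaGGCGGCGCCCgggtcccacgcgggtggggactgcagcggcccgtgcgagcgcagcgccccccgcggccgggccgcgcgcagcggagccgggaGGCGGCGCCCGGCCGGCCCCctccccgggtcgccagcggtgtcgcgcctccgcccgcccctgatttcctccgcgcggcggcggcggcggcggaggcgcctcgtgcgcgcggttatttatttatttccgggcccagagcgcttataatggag
The search ran over windows from 250 bases before to 50 bases after the start, which the RefSeq table held for 6 of the 10 symbols. It used the pattern above for NF-kB, TTNCNNAA for C/EBP, TGANTCA for AP-1 and TGTGGT for Runx, on both strands. Of 33469 promoters of that length, 47.3%, 41.3%, 7.33% and 17.3% held a match, in that order. Ankh held 3 NF-kB matches, at -243 to -234, -151 to -142 and -141 to -132 from the start, and no match to the other 3 patterns. Its window was 78.3% G and C, against a median of 51.7% over all promoters, and a pattern made of G and C is met more easily in such a window. The window of Spp1 held no match to any of the 4 patterns. These matches are letters in a window and are not evidence of binding.

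**Figure D2:**
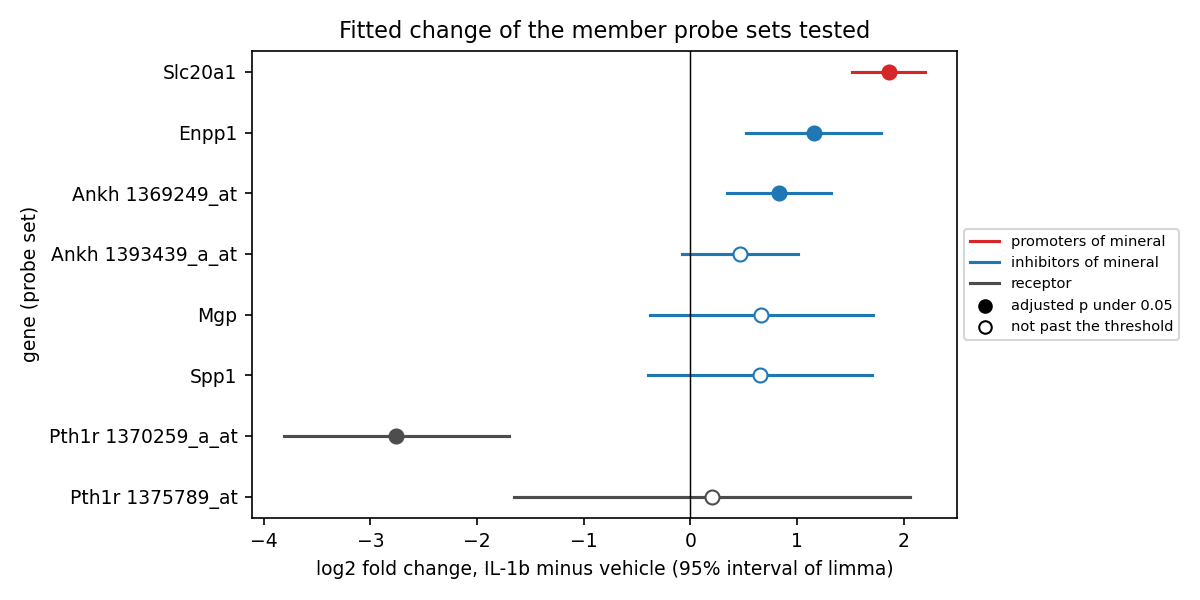
Log2 fold change (IL-1b minus vehicle) of the 8 member probe sets tested, with the 95% interval of limma, coloured by role, filled where the adjusted p was under 0.05. Slc20a1, Enpp1 and the first Ankh probe set lie to the right of 0 and the first Pth1r probe set to the left, and the intervals of Mgp, Spp1, the second Ankh and the second Pth1r probe set cross 0.

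Mgp and Spp1, the secreted protein inhibitors, were decided by 1 array. Mgp, a small protein that needs vitamin K for its activity and whose loss calcifies arteries, read (1367568_a_at) 14570.3 and 13379 with vehicle and 36309 and 13429 with IL-1b. Spp1, an acidic phosphoprotein that binds mineral and integrins, read (1367581_a_at) 15631 and 14573 with vehicle and 39041 and 14357 with IL-1b. In both, IL-1b replicate 1 was the highest array by far, and replicate 2 lay within or just under the vehicle values. Their log2 fold changes were 0.66 ± 0.44 (SE, 95% interval -0.38 to 1.71, adjusted p = 0.38) for Mgp and 0.65 ± 0.44 (-0.40 to 1.70, adjusted p = 0.40) for Spp1. Both intervals are wide and hold 0, and they do not show that the levels were alike.

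Left out of the fit, IL-1b replicate 1 took the log2 fold change to -0.06 for Mgp and -0.07 for Spp1 (adjusted p = 0.56 and 0.42). Without IL-1b replicate 2 the values were 1.38 and 1.37 (adjusted p = 2.7e-15 and 1.8e-15), where the lone IL-1b array is assumed to vary as little as the vehicle arrays did. Over the 13 alternatives the adjusted p of Mgp ran from 2.7e-15 to 0.83 and that of Spp1 from 1.8e-15 to 0.84. Quantile normalization, which gives every array the same distribution of values, left 0.11 for Mgp and 0.03 for Spp1. Both lay near the top of every array, where this scaling makes values nearly alike, so it cannot show whether they changed. Median centring, which shifts each array as a whole, left 0.46 ± 0.20 for Mgp and 0.44 ± 0.20 for Spp1 (SE).

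Other bright probe sets read high on that array too. Of the 90 probe sets with a vehicle mean of at least 10000, 80 lay above that mean on the first IL-1b array and 4 on the second, with median ratios of 1.68 and 0.908. Mgp stood at 2.60 times and Spp1 at 2.59 times the vehicle mean on replicate 1, and at 0.961 and 0.951 times on replicate 2. On replicate 1 only 1 of the 90 probe sets had a larger ratio than both. The part of this general rise of bright probe sets in the 2 values was not tested.

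**Figure D3:**
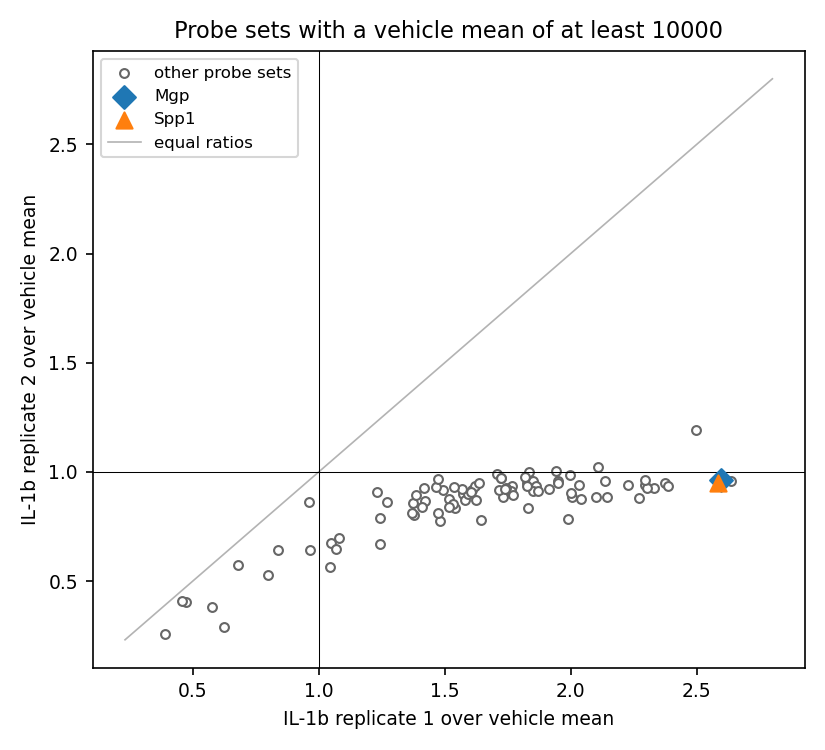
Intensity over the vehicle mean on IL-1b replicate 1 (horizontal) and replicate 2 (vertical) for the 90 probe sets with a vehicle mean of at least 10000, where the sloping line marks equal ratios. Most points lie near 1 on replicate 2 and well above 1 on replicate 1, and Mgp and Spp1 lie at the right end of this band.

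Pth1r, the receptor for parathyroid hormone and for the related peptide that smooth muscle cells make, was the member with the largest change. Its first probe set (1370259_a_at) read 367 and 361 with vehicle and 29.0 and 81.2 with IL-1b. The vehicle arrays were nearly equal, both IL-1b arrays were far lower, as groups without overlap were for 29.1% of all probe sets tested, and IL-1b replicate 1 was under the background of its array. The mean went from 364 ± 4.14 to 55.1 ± 36.9 (SD, n = 2), 6.75-fold lower on the fitted scale, with a log2 fold change of -2.76 ± 0.45 (SE, 95% interval -3.81 to -1.70, adjusted p = 0.0081). Only 0.773% of all probe sets tested had a larger fall. It was -2.09 without IL-1b replicate 1, the array on which it was under background, and -3.42 without IL-1b replicate 2. The call was lost in 1 of 13 alternatives, without the intensity trend (adjusted p = 0.064, in a range of 7.3e-11 to 0.064). The second probe set (1375789_at) was dim, at 47.2 and 24.5 with vehicle and 70.4 and 22.0 with IL-1b, with 1 array above background in each group. Its groups overlapped and its log2 fold change was 0.20 ± 0.78 (adjusted p = 0.89), with a 95% interval of -1.65 to 2.06 that does not reach the value of the first. The fall of Pth1r thus rests on 1 of its 2 probe sets. It went with the fall of the smooth muscle markers given above, whose part in it was not tested.

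The promoter of Pth1r is shown as that of the member that fell (RefSeq, GRCr8, chr8:119595572-119595821, minus strand, printed 5′ to 3′ along the gene). Capitals again mark a match to the NF-kB pattern.
Pth1r: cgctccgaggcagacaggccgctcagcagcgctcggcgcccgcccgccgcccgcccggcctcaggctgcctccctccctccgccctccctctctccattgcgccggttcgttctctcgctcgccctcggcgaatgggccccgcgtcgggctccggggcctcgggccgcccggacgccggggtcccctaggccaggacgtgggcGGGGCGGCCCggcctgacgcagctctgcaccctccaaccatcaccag
It held 1 such match, at -47 to -38 from the start, and none to the C/EBP, AP-1 or Runx pattern, in a window of 78.7% G and C. Pth1r, which fell, and Ankh, the only member that rose and had a window here, thus both held the pattern, as did 47.3% of all promoters. Windows of Alpl, Runx2 and Msx2, members that were not tested, held it too.

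**Figure D4:**
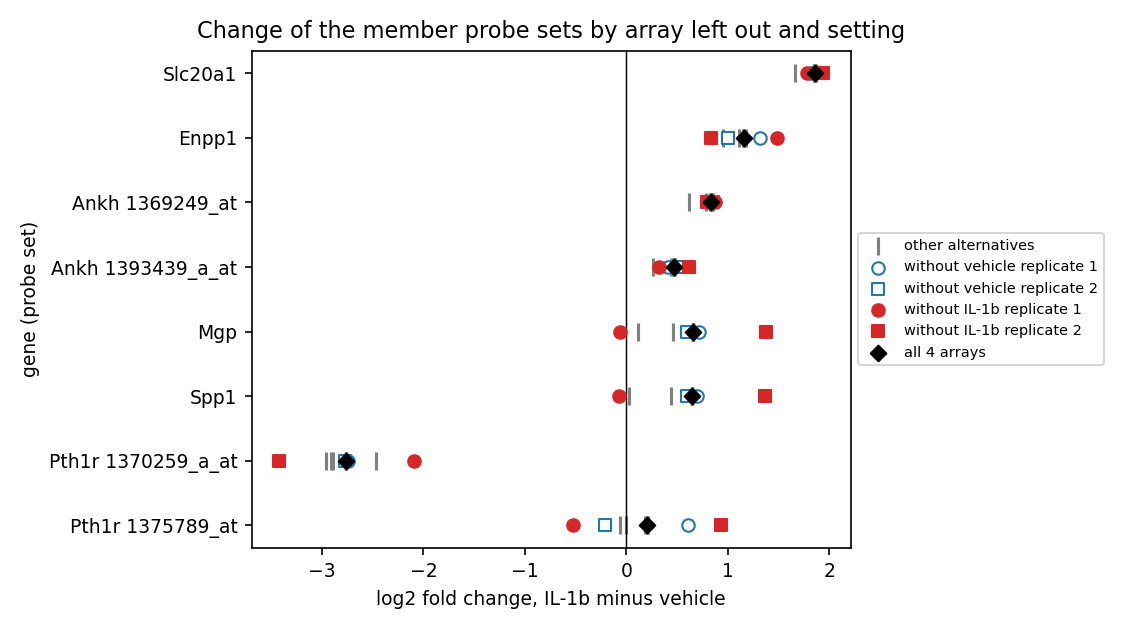
Log2 fold change (IL-1b minus vehicle) of the 8 member probe sets with all 4 arrays (diamond), with each array left out (open blue for vehicle, filled red for IL-1b) and under the other alternatives (grey bars). Slc20a1 hardly moves, Mgp and Spp1 go from about 0 without IL-1b replicate 1 to 1.38 and 1.37 without replicate 2, and the second Pth1r probe set lies on both sides of 0.

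Other genes of phosphate handling and mineralisation were taken from 7 lists of 70 symbols in all, of which 64 had a probe set and 35 were bright enough to be tested. Of these 35 genes, 5 rose, 4 fell and 26 did not pass, and their median log2 fold change was 0.10. Over all 10000 genes 7.19% rose, 8.13% fell and the median was -0.01, and the counts of the single lists, of 3 to 8 genes tested, are to be read against these shares. Counted by probe set, 8 rose and 6 fell, which became 16 and 13 without IL-1b replicate 1 and 21 and 15 without IL-1b replicate 2. In the phosphate transport and hormone list, 0 of 4 genes tested passed in limma in either direction (at an unadjusted p under 0.05, 0 were higher and 1 lower). Slc20a2 (PiT-2), the other phosphate importer of its family, read 389.6 and 406 with vehicle and 330.3 and 311 with IL-1b at its brighter probe set, a log2 fold change of -0.31 ± 0.17 (SE, adjusted p = 0.30). Its other probe set gave 0.38 ± 0.29 (adjusted p = 0.44). The interval of the first, -0.71 to 0.10, lay below that of Slc20a1, at 1.52 to 2.20, and the difference between the 2 genes was not tested. Pthlh, the peptide ligand of Pth1r, had no probe set with a single symbol.

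Among enzymes of pyrophosphate, nucleotides and matrix vesicles, 2 of 5 genes tested rose and 1 fell. Enpp3, a relative of Enpp1, read 34.4 and 34.3 with vehicle and 144 and 197 with IL-1b, a log2 fold change of 2.13 ± 0.40 (SE, adjusted p = 0.015). Nt5e (CD73), which turns AMP into adenosine outside the cell and whose loss in people calcifies arteries, read 263 and 315 with vehicle and 664 and 681 with IL-1b (1.21 ± 0.17, adjusted p = 0.0047). It missed the threshold with median centring (adjusted p = 0.15) and without the intensity trend (0.055), in a range of 2.3e-07 to 0.15. Anxa6, an annexin of matrix vesicles, fell from 1533 and 1609.5 to 789 and 688 (-1.09 ± 0.15, adjusted p = 0.0037). Without the intensity trend its adjusted p was 0.061, in a range of 6.4e-12 to 0.061.

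Among the other inhibitors of mineral and the vitamin K enzymes, 1 of 5 genes tested rose and 2 fell. Gas6, a vitamin K-dependent ligand that protects smooth muscle cells from death, read 7623 and 7528 with vehicle and 1245 and 1377 with IL-1b, a log2 fold change of -2.53 ± 0.15 (SE, adjusted p = 1.3e-04). All 3 of its probe sets fell, at -2.53, -1.73 and -1.21. Vkorc1, which recycles the vitamin K that activates both Gas6 and Mgp, fell from 2299.9 and 2208 to 1089 and 1115 (-1.03 ± 0.14, adjusted p = 0.0034), with 0.060 without the intensity trend in a range of 1.6e-11 to 0.060. Ggcx, the carboxylase that uses this vitamin K, did not pass (-0.44 ± 0.15, adjusted p = 0.11). Tnfrsf11b (osteoprotegerin), a decoy receptor for the bone-resorbing ligand RANKL, rose from 2236 and 2464 to 4943 and 4426 (0.99 ± 0.15, adjusted p = 0.0067). Its call was lost without vehicle replicate 1 or 2 (adjusted p = 0.16 and 0.087), without the intensity trend (0.071) and with median centring (0.094), in a range of 1.5e-11 to 0.16.

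Bone morphogenetic proteins (BMPs), which drive bone formation and are bound by Mgp, moved in both directions, with 1 of 8 genes of the BMP and RANK list higher and 1 lower. Bmp6 read 237 and 215 with vehicle and 2204 and 2700.1 with IL-1b, a log2 fold change of 3.40 ± 0.17 (SE, adjusted p = 7.6e-05), and a second probe set rose by 3.27 ± 0.16 (adjusted p = 7.7e-05). Another of its probe sets was below background on both vehicle arrays and at least 10.2-fold higher with IL-1b, set against that background. Bmp4 fell from 1932 and 1908 to 815 and 596 (-1.46 ± 0.18, adjusted p = 0.0027), with 0.053 without the intensity trend in a range of 1.6e-16 to 0.053. Bmp2 was dim, at 43.8 and 34.6 with vehicle and 121 and 102 with IL-1b, and did not pass (1.39 ± 0.44, adjusted p = 0.088). It passed only without IL-1b replicate 2 (adjusted p = 0.022, in a range of 0.022 to 0.49). RANKL itself, Tnfsf11, was below background on all 4 arrays at both of its probe sets. Tgm2, a transglutaminase that crosslinks matrix proteins, rose from 194 and 224 to 558 and 579 (1.42 ± 0.18, adjusted p = 0.0029), as the 1 gene of the 3 crosslinking and pro-calcific enzymes tested that passed. With median centring its adjusted p was 0.064, in a range of 9.8e-08 to 0.064.

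Of the genes of bone and cartilage identity, the matrix genes were mostly dim. Of 11 matrix genes with a probe set, 4 were bright enough to be tested and 0 passed in either direction (at an unadjusted p under 0.05, 0 were higher and 1 lower). Osteocalcin, Bglap, the marker of mature osteoblasts, read 2.32 to 7.71 over the 4 arrays, all below background. Of 6 osteoblast and chondrocyte markers, 0 were above background on all 4 arrays, and 2, Dmp1 and Bglap, were below it on all. Col10a1 read 102 and 128 with vehicle and 35.4 and 21.9 with IL-1b (-1.84 ± 0.50, adjusted p = 0.058 in limma). Ibsp read 6.10 and 19.0 with vehicle and 22.0 and 50.7 with IL-1b. It was above background on IL-1b replicate 2 only and too dim to be tested. Sparc (osteonectin), which smooth muscle cells also make, read 11964 and 12072 with vehicle and 17816 and 9309.6 with IL-1b (0.10 ± 0.32, adjusted p = 0.87). Like Mgp and Spp1 it was high on the first IL-1b array. The fitted value was -0.37 without that array and 0.57 without the second (adjusted p = 7.6e-06 and 4.0e-08, in a range of 4.0e-08 to 0.98), and -0.25 and -0.11 with quantile normalization and median centring. Of 6 bone and cartilage transcription factors tested, 0 passed (at an unadjusted p under 0.05, 0 were higher and 2 lower), and their log2 fold changes ran from -0.63 to 0.29.

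**Figure D5:**
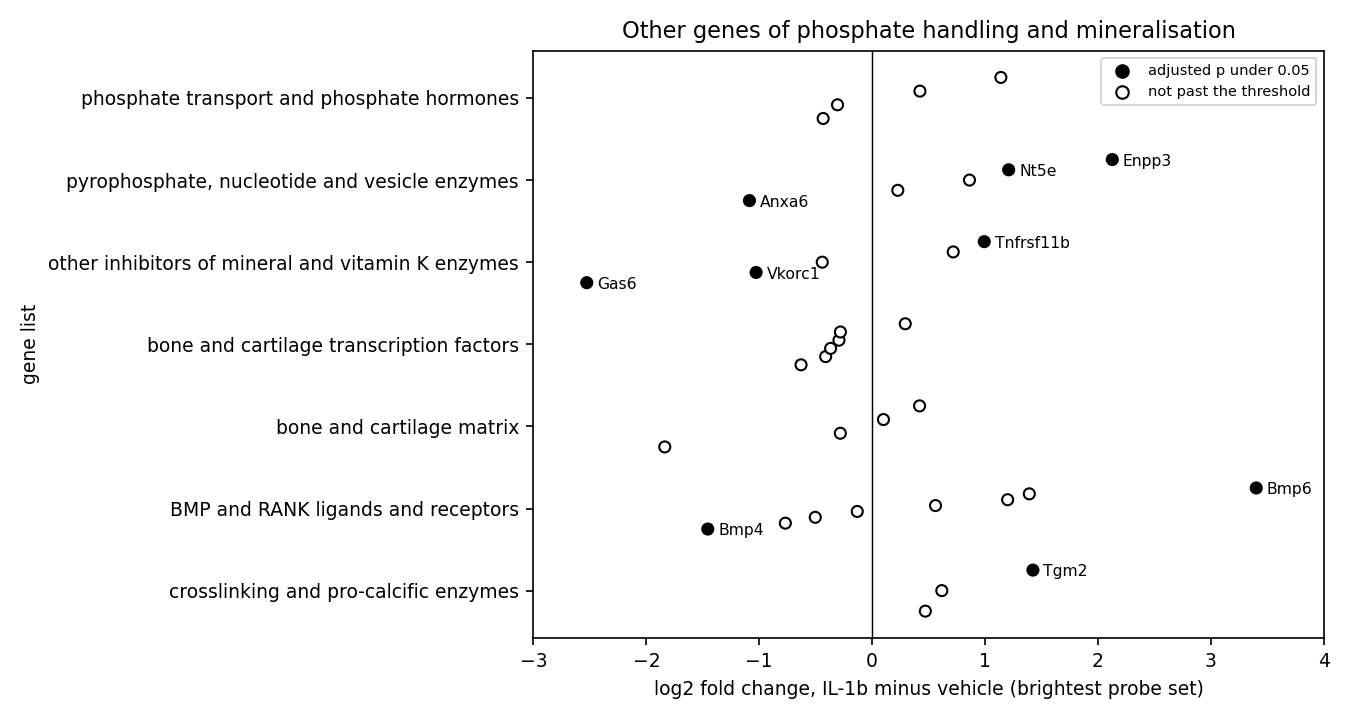
Log2 fold change (IL-1b minus vehicle) of the 35 other genes tested, by list, each at its brightest probe set, filled and named where the adjusted p was under 0.05. The 5 that rose are Bmp6, Enpp3, Tgm2, Nt5e and Tnfrsf11b, and the 4 that fell are Gas6, Bmp4, Anxa6 and Vkorc1.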

How the data were processed

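Total RNA of 4 samples, 2 per group, was measured on rat expression arrays of 1 colour. The authors made the deposited values, linear intensities per probe set, with MAS5, per the submitters' processing notes. Its version is not given in the sources used here. Trimmed of 2% at each end, every array had a mean of 250.1, and it was not normalized again. The table used here has no detection calls.

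For each value log2(intensity + 5.49) was taken, where 5.49 is the 10th percentile of all values, so folds of dim genes are understated. Without the 57 controls and the probe sets whose mean log2 value was under the 40th percentile (5.37), 18625 were fitted together in limma 3.58.1 (R 4.3.3; eBayes with an intensity trend, 2 residual and 4.91 prior degrees of freedom), with Benjamini-Hochberg adjustment over all 18625. The filter used the mean over all 4 arrays. A probe set dim with vehicle could thus enter through its IL-1b values, as those of Enpp3 and Dpt did. The fit was tested on simulated data with the same noise on every array, so the test did not cover an array that stands apart. The platform annotation gave 1 symbol for 20826 probe sets and several for 436, and 9780 were unlisted and stay unnamed. Of the first, 99.7% matched a current gene. A gene counts by its brightest tested probe set, by the mean log2 value over all 4 arrays.

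The members and the lists were chosen with earlier results of these data known. All member probe sets were named. From the other lists the rule took up to 15 called genes with the largest change, of which there were 9, and Tnfrsf11b, Bmp2, Slc20a2, Nt5e, Pthlh and Sparc. Ggcx, Tnfsf11, Bglap, Dmp1, Col10a1 and Ibsp were named after their values were seen. The alternatives changed the offset (none, or the 25th percentile), the scaling (quantile, or median centring), the filter (none, or the 60th percentile), the variance model (no trend, or a robust prior), the block (replicate number), the samples (each array omitted), the threshold (2-fold as well) and the probe sets (1 for each gene). With an array omitted, its group's remaining sample is assumed to vary as the other group does. Promoters are those of RefSeq, build GRCr8.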

Additional observations from a re-analysis of the deposited data

How the results depend on the processing

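The 3 member probe sets higher and 1 lower became 1 and 1 with median centring (at an unadjusted p under 0.05, 4 and 1, limma). Under that scaling the adjusted p was 0.21 for Mgp, 0.22 for Spp1 and 0.39 for the first Ankh probe set. Without the intensity trend 1 was higher and 0 lower (at an unadjusted p under 0.05, 3 and 1, limma). Leaving out each array gave 1 to 6 higher and 1 lower each time. For the other mineralisation genes, counted by probe set, 8 higher and 6 lower became 5 and 2 without the intensity trend, 5 higher with 1 probe set a gene, and 7 to 21 higher and 5 to 15 lower with an array left out. Over all probe sets, 1178 higher and 1325 lower became 562 higher with median centring, 484 and 479 without the trend, and 699 to 4137 and 658 to 4529 with an array left out. The cause of these moves was not tested. The direction turned for Mgp and Spp1 without IL-1b replicate 1 (-0.06 and -0.07, against 1.38 and 1.37 without IL-1b replicate 2), for the second Pth1r probe set with quantile normalization (-0.06), median centring (-0.0042), and without vehicle replicate 2 (-0.21) or IL-1b replicate 1 (-0.53, against 0.93 without IL-1b replicate 2), and for Sparc as given above (-0.25, -0.11 and -0.37, against 0.57). With the replicate number as a block, 3276 probe sets passed against 2503, and the members kept 3 higher and 1 lower. The labels do not say that same-numbered arrays are pairs, so the numbers are not taken to pair the samples. The deviations of same-numbered arrays correlated at r = 0.0912 over probe sets. This rests on 1 difference in each group, that of IL-1b involving the array that stood apart, so it cannot settle pairing. Dim probe sets are limited by background, which was highest on IL-1b replicate 1 (76.7). Alpl and 2 of the 3 Msx2 probe sets have only values below background here. Alpl and the first Msx2 probe set read at most 9.57 and 18.1, under the lowest background of any array (18.8). The second Msx2 probe set read 76.1 on IL-1b replicate 1, just under the background of that array.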
